A study of Mus musculus with 59 samples.

Results

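The Slc26 genes encode a family of membrane proteins that carry anions across epithelia and other cell membranes. The 9 members described here are Slc26a1, Slc26a2, Slc26a3, Slc26a4, Slc26a6, Slc26a7, Slc26a8, Slc26a9 and Slc26a11. They were taken as the rows with these symbols among 21706 genes, a choice made with earlier results of these data known. Gene expression was measured by RNA sequencing of uterine tissue from 29 mated female mice, in 59 libraries. Knockout females (epiERα-/-) carried 1 floxed and 1 null allele of Esr1, the gene of oestrogen receptor α, together with Wnt7aCre, a Cre recombinase driven by an epithelial gene. Control females (Esr1f/-) carried the same floxed and null alleles without Cre, so every animal had at most 1 working copy of Esr1 outside the epithelium. The females were virgins of about 2 to 6 months before they were mated with wild-type stud males, and they were dissected late in the morning of D0.5, the day of the mating plug, or of D3.5, before implantation. Luminal epithelium (LE) was scraped from uterus treated with dispase, DU was a piece of that treated uterus before scraping, and U was untreated uterus. LE came from 7 knockout and 9 control mice at D0.5 and from 6 knockout and 4 control mice at D3.5. U came from 4 knockout and 6 control mice at D0.5 and from 5 of each genotype at D3.5. DU came from 3 knockout and 4 control mice at D0.5 and from 3 of each genotype at D3.5.

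Slc26 proteins exchange chloride for bicarbonate, sulphate, oxalate or iodide, or act as anion channels, and members differ in which of these they carry. In secretory epithelia they work beside the chloride channel Cftr and set the chloride and bicarbonate content of the fluid on the apical side. The volume and pH of uterine luminal fluid change between mating and implantation under ovarian steroids, and anion transport by the luminal epithelium is part of that change. Sulphate carriers of the family supply cells with the sulphate that is built into proteoglycans.

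Library totals had a lowest value of 13.5, a median of 19.3 and a highest value of 80.3 M estimated counts in LE, 11.3, 20.6 and 108 M in U, and 14.1, 19.5 and 46.2 M in DU. Levels are in CPM, the count scaled to library size. Pgr, the progesterone receptor gene, had 13.9 CPM in knockout and 14.1 CPM in control LE at D0.5, a difference of −0.02 ± 0.27 that was not called (adjusted p = 0.97). Esr1 was lower in the knockout epithelium, at 34.8 to 62.9 CPM in knockout LE against 110 to 273 CPM in control LE at D0.5, and at 52.1 to 73.2 CPM in knockout LE against 104 to 162 CPM in control LE at D3.5. The library labelled U knockout 33 had 212 CPM of Esr1, above the 135 to 195 CPM in the 5 U controls of D3.5. U knockout mice 32, 34, 35 and 37 of D3.5 had 148, 149, 130 and 123 CPM. Esr1 did not set the genotypes apart in U at D3.5 (−0.19 ± 0.20, not called), so it cannot decide whether that label is right. Leaving out library 33 ended 1 member's call, that of Slc26a8 between days in U. The epithelial marker list of 12 genes was called higher in LE than in U for all 12 genes in each of the 4 genotype and day groups, beside 15.8% to 23.5% of all genes. The smooth muscle list summed to 0.632% to 1.28% of its U level in LE. By their sums other lists were less depleted in LE, with stromal markers at 7.95% to 13.3%, neutrophil markers at 9.36% to 81.5%, erythroid markers at 46.5% to 178% and gland markers at 62.1% to 335% of their U level. Stratified epithelium markers summed to 1030% to 1890% of their U level. Gland genes taken singly had medians below their U level. At D3.5, of 7 tested, 1 was called higher and 6 lower in control LE (median −4.31), beside 23.5% and 26.5% of all genes. In knockout LE 2 were called higher and 2 lower (median −1.68), beside 23.1% and 23.9%. At D0.5 the medians were −0.73 in controls and −0.94 in knockouts. A called gene is one with an adjusted p under 0.05 in edgeR's quasi-likelihood test with Benjamini-Hochberg adjustment over all genes tested in that comparison. Fold changes are log2 values with their standard error (SE), and SD is given over libraries. In tissue RNA, fewer cells of a type and less RNA per cell cannot be told apart.

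The promoters of 3 members are shown because these genes had large changes between days or genotypes in luminal epithelium. They are RefSeq sequences on build GRCm38.p6, from 250 bases before to 50 bases after the annotated start, and capitals mark 3 motifs on either strand, the TATA box letters TATAAA, the CCAAT box and the oestrogen half-site GGTCA. Slc26a4 lies at chr12:31559935-31560234 on the minus strand, Slc26a9 at chr1:131743772-131744071 on the plus strand and Slc26a6 at chr9:108853793-108854092 on the plus strand.
Slc26a4: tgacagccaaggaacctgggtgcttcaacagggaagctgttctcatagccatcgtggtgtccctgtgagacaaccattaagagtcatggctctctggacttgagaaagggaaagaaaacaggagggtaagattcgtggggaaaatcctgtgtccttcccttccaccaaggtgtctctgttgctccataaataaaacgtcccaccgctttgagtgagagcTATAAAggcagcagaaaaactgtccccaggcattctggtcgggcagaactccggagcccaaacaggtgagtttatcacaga
Slc26a9: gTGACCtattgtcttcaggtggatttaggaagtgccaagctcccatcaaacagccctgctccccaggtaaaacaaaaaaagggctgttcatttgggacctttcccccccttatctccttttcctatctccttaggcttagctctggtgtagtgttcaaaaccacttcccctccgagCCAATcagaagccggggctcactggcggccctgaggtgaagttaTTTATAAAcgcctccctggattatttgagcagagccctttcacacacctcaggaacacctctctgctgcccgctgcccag
Slc26a6: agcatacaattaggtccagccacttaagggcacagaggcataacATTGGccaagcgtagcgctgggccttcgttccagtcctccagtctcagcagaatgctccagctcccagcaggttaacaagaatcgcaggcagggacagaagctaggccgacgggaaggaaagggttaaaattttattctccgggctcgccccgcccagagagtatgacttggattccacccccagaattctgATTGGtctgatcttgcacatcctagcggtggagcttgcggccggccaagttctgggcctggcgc
In Slc26a4, TATAAA began 31 bases before the start. In Slc26a9 it began 28 bases before the start, overlapping a match on the other strand, with CCAAT 74 bases and GGTCA on the other strand 249 bases before the start. In Slc26a6 no TATAAA was found, and CCAAT lay on the minus strand at 206 and 14 bases before the start. Searched on both strands, TATAAA was held by 13.6%, CCAAT by 37.4% and GGTCA by 40.5% of 32851 promoters of this length. Neither the full oestrogen element GGTCANNNTGACC, held by 0.07% of promoters, nor the progesterone element GNACANNNTGTNC, held by 0.475%, was in these 3 windows. These matches describe letters only.

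Slc26a4 encodes pendrin, an apical exchanger of chloride for bicarbonate and iodide known from the thyroid, inner ear and kidney. It was the most abundant member in luminal epithelium on the day of the plug, in both genotypes, and was all but absent there by D3.5. In LE at D0.5 it had a lowest value of 216, a median of 410 and a highest value of 838 CPM in 7 knockout mice, against 159, 461 and 740 CPM in 9 control mice. The ranges overlapped nearly throughout, and the knockout fold change of 0.17 ± 0.51 was not called (adjusted p = 0.864). At D3.5 it was listed at 0 in knockout mice 31, 32, 34 and 37 and had 0.308 CPM in knockout mouse 35 and 2.08 CPM in knockout mouse 36, while all 4 control mice were at 0. Against a floor of 3 counts over the 4 control libraries of D3.5, the D3.5 level in controls was at least 11400-fold lower than at D0.5. In knockout LE the D3.5 level was lower than at D0.5 by a fold change of −10.36 ± 0.92 (adjusted p = 4.59e-09), which was −12.82 without mouse 36 of D3.5 and −16.54 without mice 35, 36 and 37, when every D3.5 library left was at 0, so that value is no bound. The difference between genotypes at D3.5 was at least 10.5-fold by the same floor, rested on 45 counts in 2 knockout mice and was not called (adjusted p = 0.101), although DESeq2 called it (adjusted p = 0.0019). Those mice, 35 and 36, also had summed stratified epithelium markers of 583 and 714 CPM, against 34.2 to 51.5 CPM in mice 31, 32 and 34, and 258 CPM in mouse 37, which had no Slc26a4; the part of such cells in the Slc26a4 counts was not tested.

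The same day course was present in uterus with all its layers. In U at D0.5 Slc26a4 had 42.5, 48, 164 and 222 CPM in knockout mice, against a lowest value of 44.3, a median of 165 and a highest value of 237 CPM in 6 control mice. At D3.5 it had 0.262 to 1.32 CPM in knockout U and 0.516 to 1.89 CPM in control U, and no library of D3.5 reached the lowest one of D0.5. The D3.5 against D0.5 fold change was −7.16 ± 0.67 in knockout U (adjusted p = 1.84e-07) and −7.30 ± 0.67 in control U (adjusted p = 5.86e-08), and it was −6.92 ± 0.77 in knockout DU and −8.16 ± 0.83 in control DU. In knockout DU it was −6.19 without mouse 27 of D0.5 and −7.60 without mouse 34 of D3.5, and in control DU it was −8.84 without mouse 14 of D3.5. Over the same days the epithelial marker list fell in U for 7 of 12 genes in knockouts, with a median of −1.11, beside 14.6% of all genes. In controls the list fell for 10 of 12, with a median of −2.67, beside 18%. Its part in the fall of Slc26a4 was not tested. In LE itself the epithelial sum was 4720 to 8500 CPM at D3.5 and 4580 to 7990 CPM at D0.5 in knockouts, with 3 genes called higher and 4 lower and a median of 0.08, and 6210 to 7770 CPM at D3.5 and 9180 to 16600 CPM at D0.5 in controls, with 2 called higher and 7 lower and a median of −0.97. The neutrophil list also fell with day in LE, for 8 of 8 tested genes in knockouts (median −7.87) and 5 of 8 in controls (median −2.91), and its part was not tested either. With day in LE, 21.4% of all genes were called higher and 20.2% lower in knockouts, and 21.2% and 22.8% in controls. Of the 7 mice of D0.5 with all 3 tissues, knockout mouse 27 had 802 CPM in LE, 222 in U and 238 in DU, and control mouse 9 had 186 CPM in LE, 62.2 in U and 56 in DU. LE was above U in each of the 10 mice of D0.5 with both tissues.

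Slc26a9 encodes an anion transporter with chloride channel activity, known from airway and gastric epithelium. It was lower in knockout than in control epithelium on D0.5 and higher on D3.5. In LE at D0.5 it had a lowest value of 37.6, a median of 62.7 and a highest value of 91.2 CPM in 7 knockout mice, against 143, 259 and 570 CPM in 9 control mice. No knockout library reached the lowest control, and the fold change was −2.26 ± 0.31 (adjusted p = 5.08e-06). In LE at D3.5 it had a lowest value of 2.68, a median of 3.18 and a highest value of 7.65 CPM in 6 knockout mice, against 0.392, 1.06, 1.06 and 1.28 CPM in 4 control mice. Again the ranges were apart, now with every knockout above every control, and the fold change was 2.01 ± 0.45 (adjusted p = 0.003). This call was lost in limma's voom with sample weights (fold change 1.95, adjusted p = 0.235), and the fold change was 0.84 on log2(TPM + 1), where values this low are compressed. The knockout effect at D3.5 minus that at D0.5 was 4.27 ± 0.55 (adjusted p = 5.52e-06).

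The level of Slc26a9 fell with day in both genotypes, with a fold change of −3.96 ± 0.37 in knockout LE (adjusted p = 3.47e-09) and −8.23 ± 0.55 in control LE (adjusted p = 6.1e-12). In U at D0.5 it had 12.3, 18, 20.4 and 33.9 CPM in knockout mice, against a lowest value of 30.7, a median of 93.6 and a highest value of 144 CPM in 6 control mice. Only the ends of the ranges overlapped, and the fold change was −2.0 ± 0.47 (adjusted p = 0.0161), with adjusted p up to 0.0573 when knockout mouse 26 or 27 was left out. In DU at D0.5 it had 17.7, 19.8 and 39.4 CPM in knockout mice, against 49.8, 49.8, 88.4 and 159 CPM in control mice. These groups did not overlap, but the fold change of −1.76 ± 0.54 missed the threshold (adjusted p = 0.0626). It was called in voom (−1.76, adjusted p = 0.0215) and on log2(TPM + 1) in limma (−1.64, adjusted p = 0.0294). By D3.5 the level was 0.0872 to 1.28 CPM in knockout U and 0.129 to 0.998 CPM in control U, a fall against D0.5 of −5.17 ± 0.56 in knockouts and −7.63 ± 0.61 in controls. At D0.5 the summed neutrophil markers in LE were 935 to 3480 CPM in knockouts against 18.7 to 405 CPM in controls, and the summed epithelial markers were 4580 to 7990 CPM against 9180 to 16600 CPM. Of the 12 epithelial markers 7 were called lower, beside 12.6% of all genes, with a median of −0.83. The part of either list in the lower Slc26a9 and Slc26a1 of knockout LE was not tested.

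Slc26a6 encodes an apical exchanger of chloride for bicarbonate, oxalate and formate that works beside Cftr in pancreas and gut. It rose in control luminal epithelium by D3.5 and was nearly lacking there in knockouts. In LE at D3.5 it was listed at 0 in knockout mice 32 and 34 and had 1.56 to 2.68 CPM in the other 4 knockout mice, against 24.4, 73.3, 116 and 193 CPM in control mice. The highest knockout library was below the lowest control, and the fold change was −6.14 ± 1.01 (adjusted p = 0.000143). At D0.5 the genotypes overlapped, with a lowest value of 0, a median of 4.67 and a highest value of 14.8 CPM in 7 knockout mice and 1.53, 4.21 and 18.2 CPM in 9 control mice. The knockout effect at D3.5 minus that at D0.5 was −5.88 ± 1.17 (adjusted p = 0.000871). With day it rose in control LE by 3.94 ± 0.79 (adjusted p = 0.000189), while the fold change in knockout LE was −1.94 ± 0.83 and was not called (adjusted p = 0.0633). In U at D3.5 it had 2.9 to 9.72 CPM in knockout mice and 4.7 to 12.8 CPM in control mice, a difference of −0.39 ± 0.34 that was not called. In DU at D3.5 it had 2.01, 2.91 and 3.4 CPM in knockout mice, against 4.75, 5.08 and 11.8 CPM in control mice, ranges that did not overlap with a fold change of −1.39 ± 0.44 that was not called (adjusted p = 0.32). Within knockout DU it fell with day, with a fold change of −1.55 ± 0.44 (adjusted p = 0.018), and without knockout mouse 34 of D3.5 that call was lost (adjusted p = 0.073). Summed erythroid markers in LE at D3.5 were also apart, at 28.9 to 475 CPM in knockouts and 505 to 2690 CPM in controls, and stratified epithelium markers summed to 34.2 to 714 CPM in knockouts and 7.89 to 76.1 CPM in controls, with Krt6a and Krtdap at 0 in both. Their part was not tested. Without knockout mice 35, 36 and 37 the fold change of Slc26a6 was −7.23 (adjusted p = 0.00313), with mice 32 and 34, both at 0, among those left. That value rests on libraries at 0, so it is no bound, and the refit is no test of those cells.

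**Figure D1:**
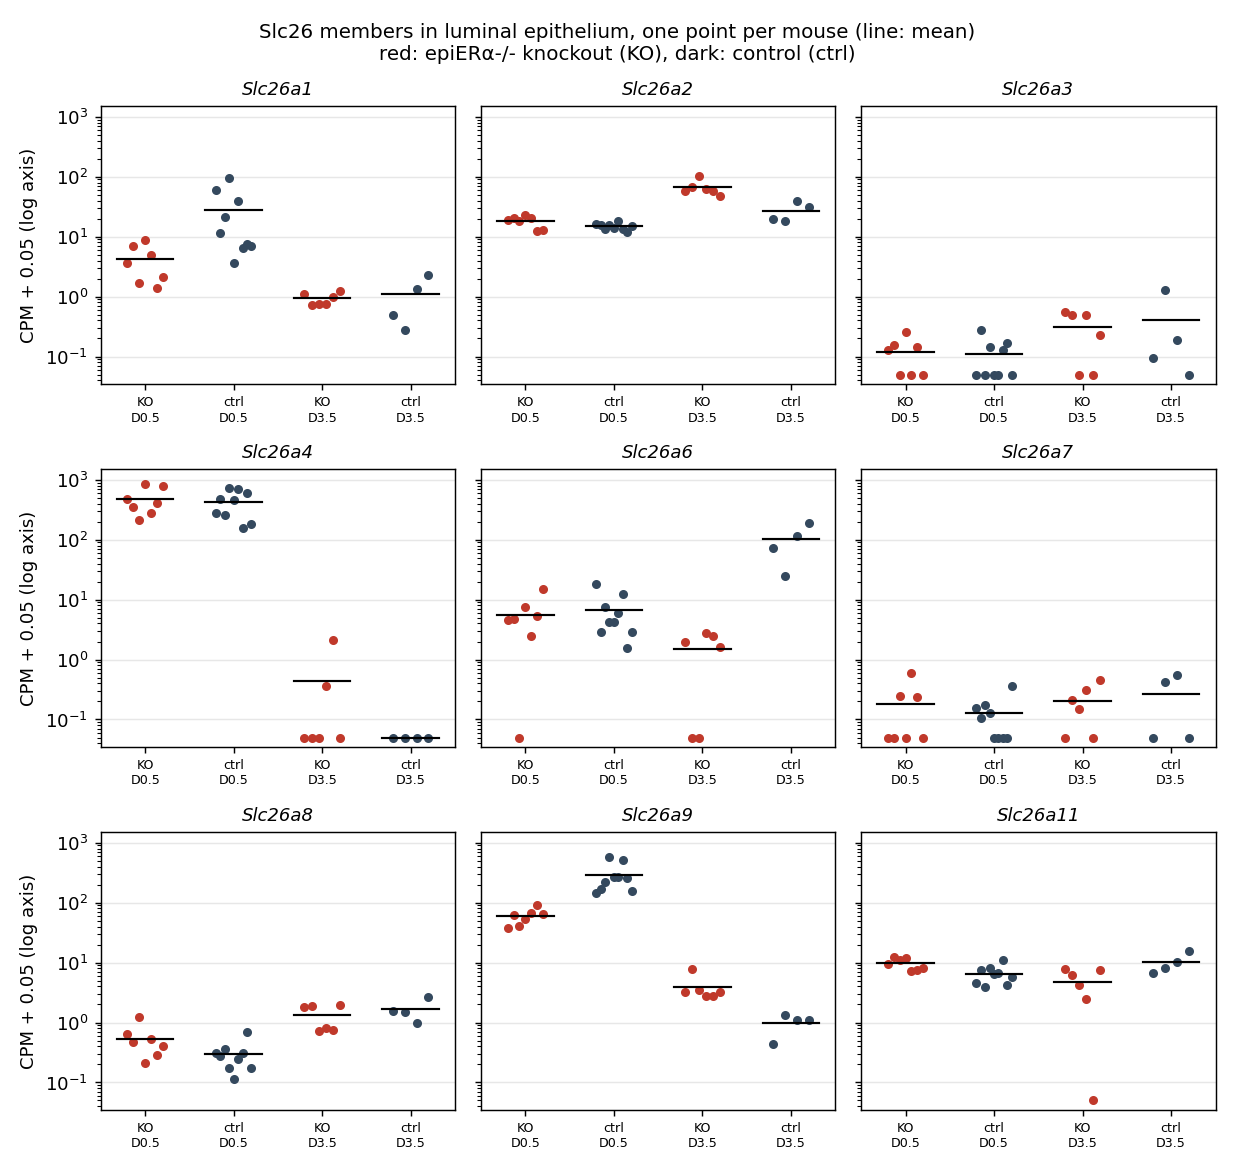
Level of each Slc26 member in luminal epithelium in CPM plus 0.05 on a log axis, with one point per mouse and a line at the group mean, for knockout and control mice at D0.5 and at D3.5; points at 0.05 are libraries at 0. Slc26a9 groups are apart on both days and in opposite order, Slc26a6 groups are apart at D3.5, and Slc26a4 drops to or near 0 at D3.5 in both genotypes.

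Slc26a7, which encodes a chloride and bicarbonate transporter known from stomach, kidney and thyroid, was detected in the uterine wall and hardly in luminal epithelium. In LE it failed the filter on low counts, with 0 to 0.543 CPM in the 26 libraries. Slc26a7 in U at D0.5 had 78.5, 120, 124 and 218 CPM in knockout mice, against a lowest value of 31.3, a median of 73 and a highest value of 185 CPM in 6 control mice. At D3.5 it had 35.8, 47.2, 48.2, 50.6 and 68.6 CPM in mice labelled knockout and 10.3, 17, 24.6, 27.8 and 38.4 CPM in control mice. Only the library labelled knockout 33, at 35.8 CPM, lay below the highest control, and the other 4 were above all 5 controls. The differences of 0.63 ± 0.41 at D0.5 (adjusted p = 0.524) and 1.08 ± 0.41 at D3.5 (adjusted p = 0.848) were not called. With day it fell in all 4 uterine comparisons, with a fold change of −1.43 ± 0.43 in knockout U, −1.89 ± 0.41 in control U, −1.70 ± 0.51 in knockout DU and −1.95 ± 0.50 in control DU, with adjusted p between 0.00105 and 0.0236. The call in knockout U was lost without mouse 26 of D0.5, and the one in knockout DU was lost without any of mice 25 and 26 of D0.5 and 32 and 35 of D3.5. On both TPM scales the calls in knockout U, knockout DU and control DU were lost. The LE level was 0.0869% to 0.925% of the U level over the 4 genotype and day groups. Beside it, the summed stromal list was at 7.95% to 13.3% of its U level in LE. Single stromal genes ranged widely, from 0.756% to 2.59% for Pdgfra through 4.07% to 11.4% for Col1a1 and 12.3% to 16.1% for Lum to 21.3% to 62.7% for Dcn, and the smooth muscle gene Myh11 was at 0.0852% to 0.2%. Which cells of the wall carried Slc26a7 was not tested.

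Slc26a3 encodes the chloride and bicarbonate exchanger of colon and was hardly detected. Its highest library was LE control mouse 14 of D3.5 with 1.24 CPM, it was at 0 in every U and DU library of D0.5, and it passed the filter in LE alone among the single tissues. No comparison within LE called it.

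Slc26a1 encodes a basolateral exchanger of sulphate and oxalate known from liver and kidney. It was lower in knockout than in control LE at D0.5 and fell with day. In LE at D0.5 it had a lowest value of 1.33, a median of 3.6 and a highest value of 8.82 CPM in 7 knockout mice, against 3.65, 11.5 and 94.1 CPM in 9 control mice. The ranges overlapped, since 4 control mice lay between 3.65 and 7.4 CPM while mice 6, 1 and 4 had 38.8, 58.9 and 94.1 CPM. The fold change was −2.72 ± 0.62 (adjusted p = 0.00194), and it stayed called when any of the 16 libraries was left out, with adjusted p up to 0.00587. On log2(TPM + 1) the fold change was smaller, at −1.37. Between days the fold change was −2.25 ± 0.70 in knockout LE (adjusted p = 0.0113) and −4.75 ± 0.91 in control LE (adjusted p = 0.000117; −5.40 without control mouse 16 of D3.5), where D3.5 levels were 0.671 to 1.21 CPM in knockouts and 0.229 to 2.28 CPM in controls. The knockout call was lost on both TPM scales, in voom and without knockout mice 35, 36 and 37, and the control call was lost in voom. In U it fell with day in controls, with a fold change of −1.86 ± 0.58 (adjusted p = 0.016, lost on both TPM scales), and in knockouts the fold change of −0.44 ± 0.62 was not called. In GENCODE's annotation, 141 of the 4050 exonic bases of Slc26a1, or 3.48%, are shared with Idua on the other strand. At D0.5 Idua averaged 14.3 CPM in knockout LE, against 16.8 CPM in control LE.

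Slc26a2 encodes the sulphate carrier that cartilage and other tissues need to sulphate their proteoglycans. It was the leading member of knockout luminal epithelium at D3.5. In LE at D3.5 it had a lowest value of 48.1, a median of 61.1 and a highest value of 102 CPM in 6 knockout mice, against 17.9, 19.6, 30.9 and 39.7 CPM in 4 control mice. All knockout libraries were above all controls, and the fold change was 1.29 ± 0.23 (adjusted p = 0.000304). At D0.5 the ranges overlapped at 12.4 to 23.2 CPM in knockouts and 12 to 18 CPM in controls, and the difference of 0.30 ± 0.17 was not called (adjusted p = 0.222). The knockout effect at D3.5 minus that at D0.5 was 0.99 ± 0.28 (adjusted p = 0.0155). With day it rose in LE in both genotypes, by 1.86 ± 0.19 in knockouts (adjusted p = 1.69e-08) and 0.87 ± 0.20 in controls (adjusted p = 0.000778). It also rose in knockout U, by 0.98 ± 0.28 (adjusted p = 0.0131, lost without mouse 25 of D0.5 and on both TPM scales), and in knockout DU, by 1.06 ± 0.16 (adjusted p = 0.000362). The gland marker list in LE summed to 549 to 1820 CPM at D3.5 and 44.1 to 208 CPM at D0.5 in knockouts, and to 882 to 1960 CPM at D3.5 and 34.4 to 199 CPM at D0.5 in controls, so that the sums of the genotypes overlapped on each day. With day 4 of 6 tested gland genes rose in each genotype (medians 2.96 and 3.15), beside 21.4% and 21.2% of all genes in knockouts and controls. On each day 3 of 6 were higher in knockouts than in controls (medians 2.09 at D0.5 and 2.44 at D3.5), beside 10.9% and 7.79% of all genes. At D3.5 Prss28 was at 0 in both genotypes and Prss29 at 0 in knockouts. The part of gland cells in the changes of Slc26a2, Slc26a6 and Slc26a9 was not tested. In control U and DU the differences between days of 0.39 ± 0.25 and 0.36 ± 0.15 were not called, though voom called the one in DU (0.45, adjusted p = 0.00892). In DU at D0.5 Slc26a2 had 19.7, 23.1 and 26.5 CPM in knockout mice, against 27, 31.9, 32.3 and 39.8 CPM in control mice, a difference of −0.50 ± 0.15 with no overlap that missed the threshold (adjusted p = 0.0619). DESeq2 called it lower there (−0.51, adjusted p = 0.0277). In U at D0.5 voom called it lower in knockouts (−0.74, adjusted p = 0.0293), where edgeR gave −0.41 ± 0.27 (adjusted p = 0.538).

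Slc26a11 encodes an anion transporter that has been described as a sulphate carrier and a chloride channel. It had group means of 4.7 to 17.4 CPM, and edgeR fitted per tissue called it in no knockout or day comparison. Fitted on the compared groups alone, edgeR called it higher in knockout LE at D0.5 (0.63, adjusted p = 0.0454). DESeq2 (−1.05, adjusted p = 0.0494) and voom (−1.68, adjusted p = 0.0168) called it lower at D3.5 than at D0.5 in knockout LE, where edgeR gave −1.04 ± 0.50 (adjusted p = 0.0952). Its lowest library was LE knockout mouse 36 of D3.5, listed at 0 CPM where the other 5 knockout mice had 2.46 to 7.84 CPM and the 4 control mice 6.67 to 15.4 CPM. In U at D0.5 it had 12.3, 18.5, 18.6 and 20.2 CPM in knockout mice and a lowest value of 8.04, a median of 11.7 and a highest value of 15.5 CPM in 6 control mice, a difference of 0.60 ± 0.19 that missed the threshold (adjusted p = 0.0686) and that DESeq2 called (adjusted p = 0.0268).

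Slc26a8 encodes the anion transporter of sperm, and it was near the lower limit of these libraries, with group means of 0.248 to 2.17 CPM. It rose with day in LE, by 1.34 ± 0.48 in knockouts (adjusted p = 0.026) and 2.70 ± 0.50 in controls (adjusted p = 7.75e-05), and in the knockouts of U, by 1.16 ± 0.41 (adjusted p = 0.0451), and of DU, by 1.99 ± 0.62 (adjusted p = 0.0265). The control LE call held without any 1 of its 13 libraries, whereas the call in knockout LE was lost without 5 of 13 libraries, that in knockout U without 8 of 9, the one labelled knockout 33 among them, and that in knockout DU without 4 of 6. The sperm and testis list summed to 0.819 to 12.7 CPM per library, with 1 to 5 of its 9 genes at 0 throughout each group; its part in Slc26a8 was not tested.

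Between genotypes in LE, 2 members were called on D0.5 and 3 on D3.5. At D0.5, 0 of 8 tested members were called higher and 2 lower, beside 10.9% of 15601 genes called higher and 12.6% lower (23.6% in all). At D3.5, 2 were called higher and 1 lower, beside 7.79% and 5.7% of genes (13.5% in all). For the difference between the 2 days 2 were called higher and 1 lower, beside 9.52% and 6.99% (16.5% in all). The median fold change of the 8 members was 0.17 at D0.5 and −0.28 at D3.5, where that of all genes was −0.01 on both days. In U at D0.5, 0 of 8 were called higher and 1 lower, beside 2.02% and 2.96% of 16232 genes (4.98% in all). In U at D3.5 edgeR called 0 members, beside 0.0185% of genes, all of them higher, and also 0 members without the library labelled knockout 33. At an unadjusted p under 0.05 were 2 members, beside 682 of 16232 genes. DESeq2 called 0 members and 78 genes, and voom called 2 members and 1439 genes. In DU edgeR called 0 of 8 at D0.5, beside 3.89% of 16194 genes called higher and 4.17% lower (8.06% in all). At an unadjusted p under 0.05 were 3 members, beside 3948 genes. DESeq2 called 2 members and 2173 genes, and voom called 1 member and 1393 genes. At D3.5 edgeR called 0 members beside 0.117% and 0.457% (0.574% in all). There 1 member and 1319 genes were at an unadjusted p under 0.05, and DESeq2 and voom called 0 members, beside 244 and 345 genes. The change of the knockout effect between days was called by edgeR for 0 members in U, beside 0.943% of genes higher and 0.487% lower (1.43% in all). In DU it was called for 0, beside 0.945% and 0.932% (1.88% in all). At an unadjusted p under 0.05 were 2 members and 1684 genes in U and 4 members and 2546 genes in DU. DESeq2 called 1 member in each, beside 523 genes in U and 903 in DU. For voom it was also 1 in each, beside 1029 genes in U and 686 in DU.

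**Figure D2:**
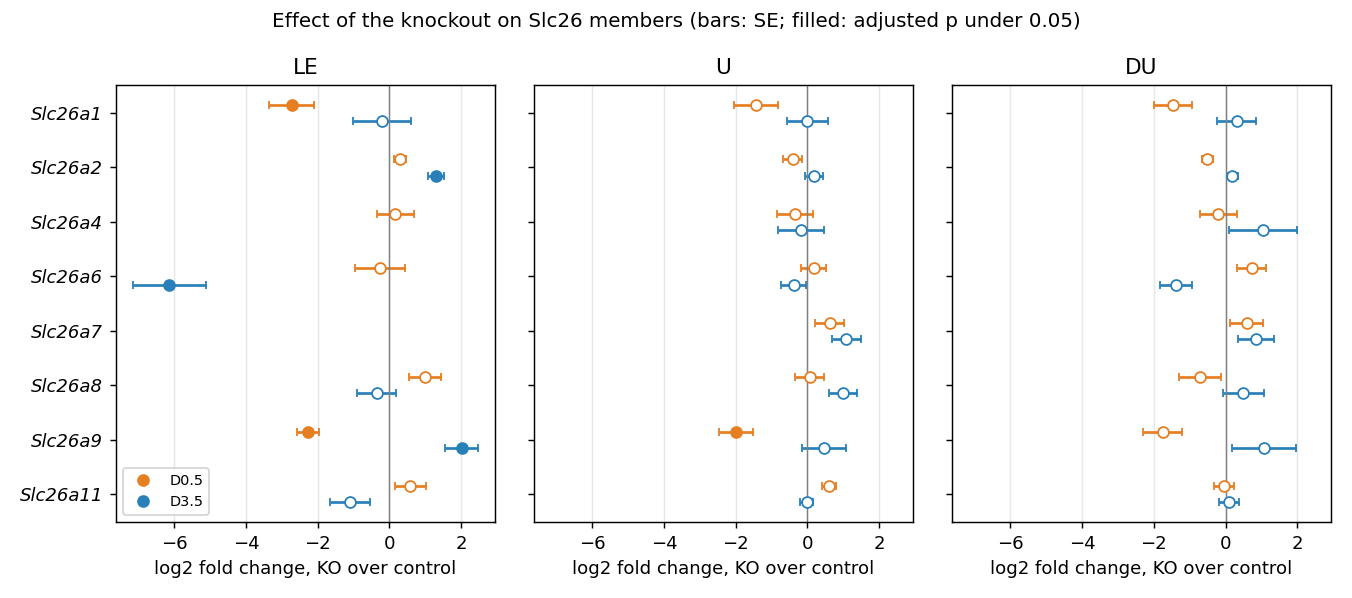
Log2 fold change of knockout over control for 8 members in LE, U and DU, with SE bars, at D0.5 (orange) and D3.5 (blue), and filled points where the adjusted p is under 0.05. Slc26a7 in LE was not tested, and Slc26a4 in LE at D3.5 is left out because all control libraries were at 0. The farthest points are Slc26a6 in LE at D3.5 at −6.14 and Slc26a1 in LE at D0.5 at −2.72, and Slc26a9 in LE lies on opposite sides of 0 on the 2 days.

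Between days, 2 members rose and 3 fell in knockout LE, beside 21.4% of genes called higher and 20.2% lower (41.6% in all), and 3 rose and 3 fell in control LE, beside 21.2% and 22.8% (44% in all). In U 2 rose and 3 fell in knockouts, beside 10.9% and 14.6% (25.5% in all), and 0 rose and 4 fell in controls, beside 16.2% and 18% (34.2% in all). In DU 2 rose and 4 fell in knockouts, beside 12.9% and 17.3% (30.2% in all), and 0 rose and 3 fell in controls, beside 15.9% and 18.5% (34.4% in all). Slc26a4 and Slc26a9 were among the members that fell in each of these 6 comparisons, which share their libraries with the genotype comparisons.

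**Figure D3:**
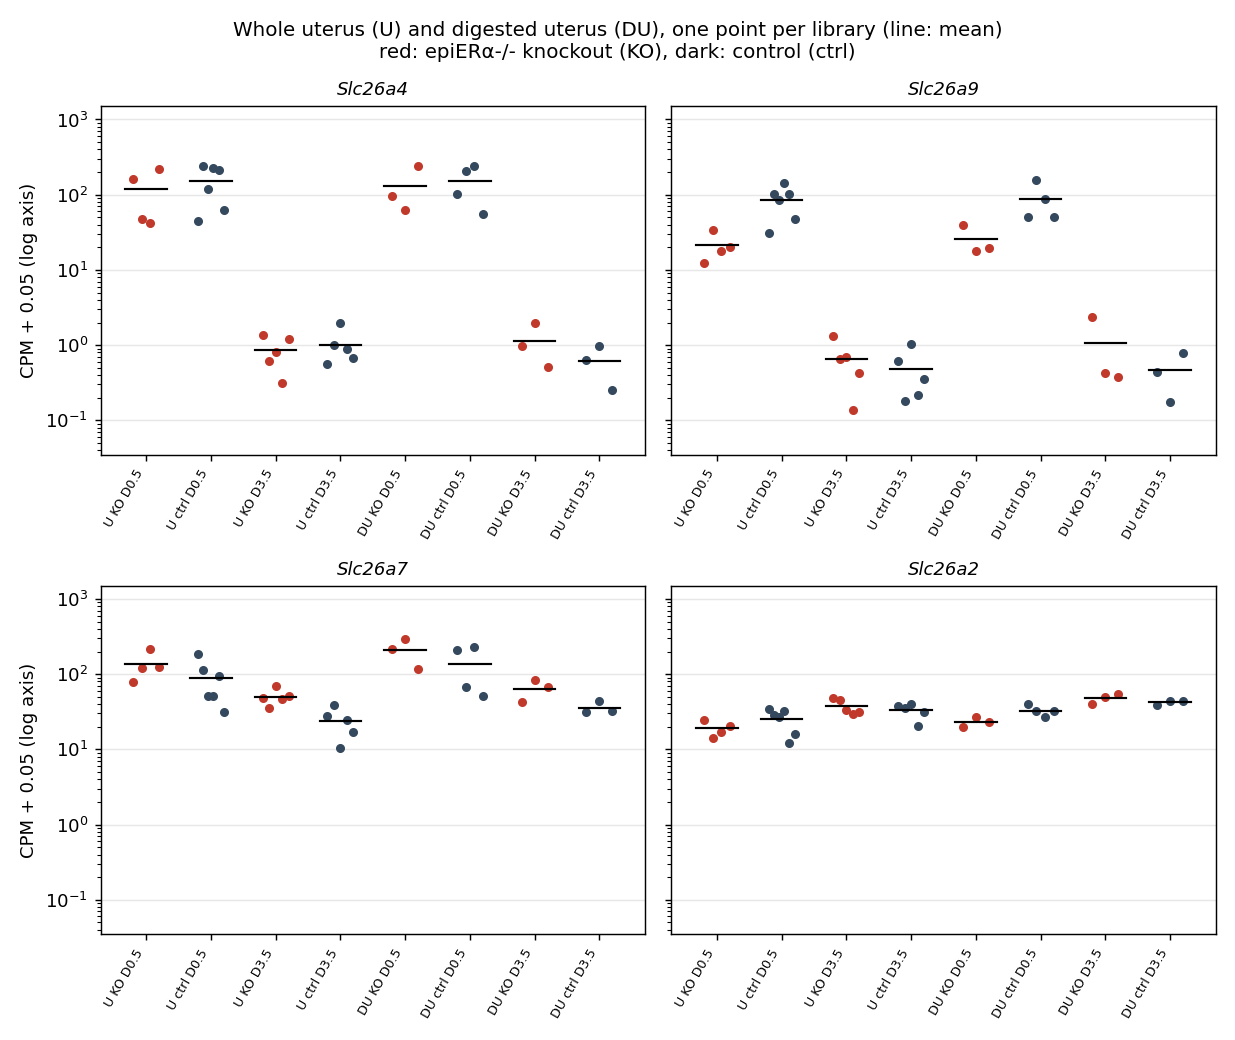
Level of Slc26a4, Slc26a9, Slc26a7 and Slc26a2 in uterus (U) and digested uterus (DU) in CPM plus 0.05 on a log axis, with one point per library and a line at the group mean, knockout left of control within each day. Slc26a4 and Slc26a9 are lower at D3.5 in every group, and Slc26a7 stays above 10 CPM in every library.

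Levels of different members were compared in TPM as the authors deposited them, a unit that allows for transcript length. In LE at D0.5 the 9 members summed to 208 ± 93.2 TPM in knockouts and 236 ± 85.4 TPM in controls (SD, n = 7 and 9). Slc26a4 made up 87.5% of the knockout sum, ahead of Slc26a9 with 7.08%, and 64.6% of the control sum, ahead of Slc26a9 with 28.9%. In LE at D3.5 the sum was 20.1 ± 2.65 TPM in knockouts and 58.1 ± 36.6 TPM in controls (SD, n = 6 and 4). There Slc26a2 led in knockouts with 13 ± 3.05 TPM, or 65% of the sum, ahead of Slc26a11 with 2.84 ± 1.86 TPM. In controls Slc26a6 led with 46.8 ± 32.8 TPM, or 80.4% of the sum, and Slc26a11 with 4.66 ± 1.87 TPM and Slc26a2 with 4.29 ± 2.27 TPM followed within 1 SD of each other. Slc26a4 led in U at D0.5 with 46.7 ± 37.4 TPM in knockouts and 55.9 ± 34.7 TPM in controls (SD, n = 4 and 6). At D3.5 Slc26a7 led in U with 13.4 ± 3.03 TPM in mice labelled knockout and 6.54 ± 4.08 TPM in controls, where it was not apart from Slc26a11 with 6.51 ± 1.08 TPM (SD, n = 5 each). In DU at D0.5 the levels of Slc26a7 and Slc26a4 were close, at 52.5 ± 20.8 and 51.4 ± 36.1 TPM in knockouts, and 39.5 ± 26.3 and 64.5 ± 36.8 TPM in controls.

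**Figure D4:**
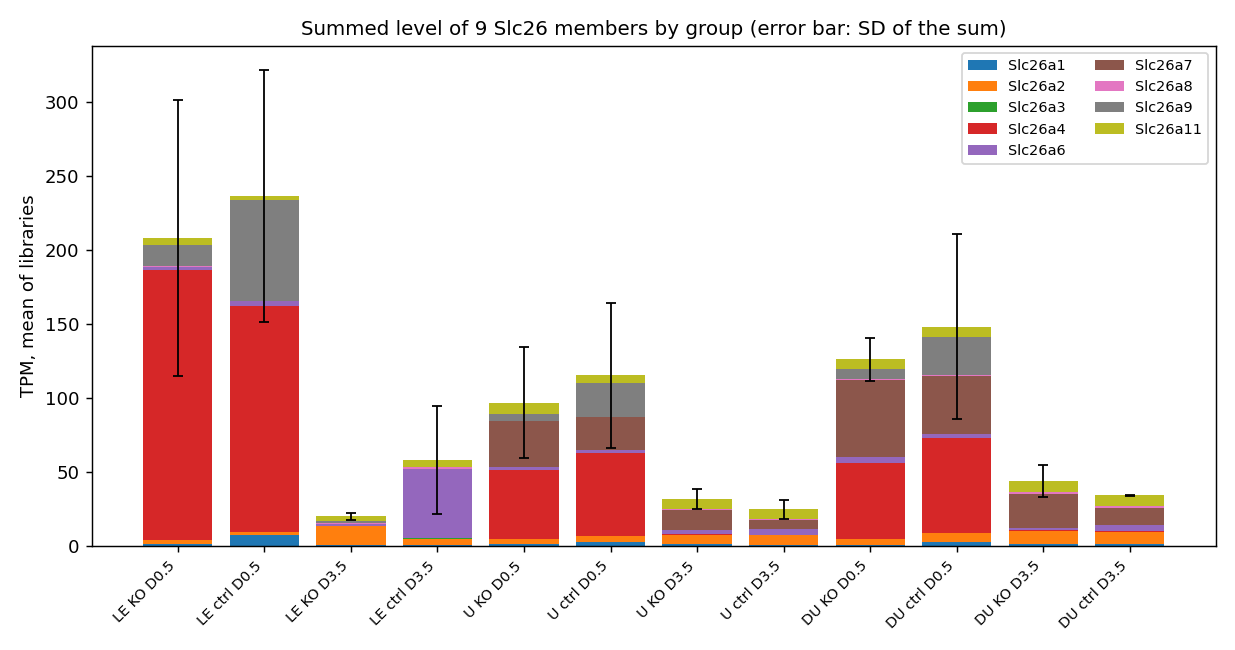
Summed TPM of 9 Slc26 members by tissue, day and genotype, stacked by member as the mean over libraries, with the SD of the sum as error bar. Slc26a4 fills most of the LE bars of D0.5, Slc26a6 fills 80.4% of the control LE bar of D3.5, Slc26a2 fills 65% of the knockout one, and Slc26a7 is seen in U and DU but hardly in LE.

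LE was compared with U within each genotype and day, since these tissues came in part from the same mice. At D0.5 in knockouts 2 of 9 members were higher in LE and 1 lower, beside 15.8% of 16665 genes called higher and 22.6% lower (38.4% in all), and in controls 3 were higher and 3 lower, beside 20.2% and 26.4% (46.6% in all). Slc26a9 was higher in LE in all 4 comparisons, by 1.77 ± 0.44 in knockouts and 2.00 ± 0.37 in controls at D0.5, and by 3.07 ± 0.49 and 1.49 ± 0.60 at D3.5. Slc26a4 was higher in LE at D0.5, by 2.30 ± 0.66 in knockouts (2.91 without U knockout mouse 27) and 1.78 ± 0.53 in controls. Slc26a7 was lower in LE in all 4 comparisons, with fold changes from −6.28 to −10.06. Slc26a8 was lower in control LE at D0.5 with −1.62 (adjusted p = 0.000964). At D3.5 in mice labelled knockout 2 members were higher and 2 lower, beside 23.1% and 23.9% of genes (47% in all), and in controls 2 were higher and 2 lower, beside 23.5% and 26.5% (50.1% in all). Slc26a6 was higher in control LE at D3.5 by 4.15 ± 0.82 (adjusted p = 5.66e-05). Slc26a4 was lower there (adjusted p = 0.00353), with every control LE library at 0 and 0.516 to 1.89 CPM in control U. That call was lost on log2(TPM + 1) and in voom. Slc26a2 was higher in knockout LE at D3.5 by 1.18 ± 0.24, and Slc26a11 was lower there with −1.12 ± 0.42, a call lost without LE knockout mouse 34 or 35. Refitted with mouse as a blocking term, on animals that gave both tissues, the calls of Slc26a1 (2.05 ± 0.62 without the block, 0.91 with it) and Slc26a2 (−0.50 ± 0.20 without, −0.47 with) in controls at D0.5 were lost, with adjusted p of 0.146 and 0.0615. That of Slc26a2 was also lost without any of 7 single libraries, LE control mice 3, 7 and 8 and U control mice 1, 2, 3 and 5, with adjusted p up to 0.283. The block added Slc26a11, lower in LE at D0.5 with −0.84 in knockouts and −0.85 in controls, and, in knockouts at D3.5, Slc26a4 at −3.03 (adjusted p = 0.00816) and Slc26a6 at −2.82 (adjusted p = 0.00526). The higher Slc26a9 in control LE at D3.5, where levels were 0.392 to 1.28 CPM in LE and 0.129 to 0.998 CPM in U, was lost without any of 6 single libraries, LE control mice 14, 15 and 16 and U control mice 12, 14 and 16, with adjusted p up to 0.109.

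DU was set against U, a comparison in which dispase treatment and the batch of RNA isolation cannot be told apart. edgeR called 0 of 8 tested members and 0 of 16782 genes (0%), with 2 members and 4055 genes at an unadjusted p under 0.05, and DESeq2 called 157 genes and voom 3498. With the blocking term, 7082 genes were called, among them Slc26a2 with 0.46 (adjusted p = 0.0115) and Slc26a7 with 0.44 (adjusted p = 0.00722), both higher in DU.

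Genes that work with Slc26 carriers were described through 4 lists. Of 17 tested chloride and bicarbonate partners, 3 rose and 2 fell in knockout LE at D0.5, beside 10.9% and 12.6% of all genes, with a median of 0.36. Cftr, the apical chloride channel, had 31.4 CPM in knockouts and 148 CPM in controls, a fold change of −2.24 ± 0.28 (adjusted p = 1.46e-06), and fell again in U with −2.91 ± 0.42 and in DU with −2.55 ± 0.53. Clcn2, a chloride channel gene, had 2.98 CPM in knockouts and 60 CPM in controls, with −4.32 ± 0.28 (adjusted p = 3.87e-11). Slc12a7, a potassium and chloride cotransporter gene, rose by 1.11 ± 0.19 (adjusted p = 9.86e-05). At D3.5 Clcn2 alone of the 17 was called, with −1.51 ± 0.30, beside 13.5% of all genes called. With day, 5 of 17 partners rose and 6 fell in knockout LE, beside 21.4% and 20.2% of all genes, and 3 rose and 5 fell in control LE, beside 21.2% and 22.8%. Cftr fell in control LE with a fold change of −3.66 ± 0.38.

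Carbonic anhydrases with enzyme activity supply the bicarbonate that several Slc26 members carry, and the list was not restricted to them. Of 9 tested, 2 rose and 4 fell in knockout LE at D0.5, among them Car5b with −1.64 ± 0.20, Car13 with 1.50 ± 0.21 and Car8 with 2.22 ± 0.39. Car8 was low, at 1.61 CPM in knockouts and 0.339 CPM in controls. At D3.5, 1 rose and 2 fell, Car13 with 1.58 ± 0.30, Car12 with −1.82 ± 0.38 and Car2 with −1.08 ± 0.30. Of 13 scaffolds and regulators, 1 rose and 3 fell in knockout LE on each day. The kinase genes Wnk2 and Wnk4 had fold changes of −2.67 ± 0.36 and 1.27 ± 0.20 at D0.5, and at D3.5 Wnk4 was lower in knockouts, with 165 CPM against 383 CPM in controls (−1.22 ± 0.26). In control LE Wnk4 rose with day by 4.72 ± 0.24 (adjusted p = 3.15e-14). Of 7 tested genes of sulphate use, 1 rose and 1 fell in knockout LE at D0.5 and 2 rose at D3.5. The one that fell was Slc35b2, with −0.69 ± 0.14 (adjusted p = 0.000625). Papss1, which makes the active form of sulphate, rose on both days, by 0.65 ± 0.14 and 0.70 ± 0.18, and Bpnt2, a phosphatase of its products, rose at D3.5 by 0.48 ± 0.16. In the matching comparisons 23.6% and 13.5% of all LE genes were called.

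The genes whose profile over the 12 groups lay closest to each member were found from group means of log2(CPM + 0.05), each centred on its own mean, among 16426 genes. The measure is the root mean square difference, to be read against the member's own spread over the groups. Slc26a4, with an own spread of 4.64, was closest to Tnip3 at 0.80 and Nos2 at 1.08. Slc26a9, with a spread of 3.36, was close to Slc16a14 at 0.56. Slc26a7, with a spread of 4.24, was closest to Col6a4 at 0.61 and A2m at 0.67, and Slc26a6, with a spread of 1.52, to Fbxw28 at 0.82 and Lipa at 0.84. For Slc26a1 (spread 1.14) the closest were Nlrc4 and Rundc3b, both at 0.39, for Slc26a2 (0.61) Hal and Znrf3, both at 0.24, and for Slc26a11 (0.62) Tmem268 and Ptgis, both at 0.31.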

How the data were processed

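For 21706 genes in 59 libraries the authors deposited estimated counts, which are fractional, and TPM values. The submitters' processing notes name kallisto 0.46.1 and GRCm39, and the step by which transcripts became genes is not given. RNA was isolated as 1 batch per tissue, per the labels' protocols, so in LE against U and in DU against U the tissue and its batch cannot be told apart. The estimated counts were rounded, genes passing filterByExpr (minimum count 10, minimum total 15) were kept, and a fit was made per tissue or pair of tissues in edgeR 4.0.16 (quasi-likelihood test, TMM scaling, R 4.3.3), with groups as the only terms and Benjamini-Hochberg adjustment over every gene of a comparison. The fits tested 15601 genes in LE, 16232 in U, 16194 in DU, 16665 in LE with U and 16782 in DU with U. CPM values use the TMM library sizes within a tissue, and fold changes come from the fit, so they can differ from ratios of CPM. Where a group was at 0, its fold was bounded with 3 counts for the whole group, which allows for counting error alone. DESeq2 1.42.0, limma 3.58.1 (voom with sample weights, and log2 of TPM plus 1 or 0.1), other scaling, no filter, smaller fits and each library left out were tried. The test was tested on simulated data. Promoter entries matched by symbol were used for 6 of 9 members. Slc26a7 and Slc26a11 had no entry, and entries on chromosome 18, where Slc26a2 lies, were left out. The shares over 32851 promoters still include that chromosome.

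A number shared between tissues marks 1 animal, per the labels. Their deviations from group means had a median correlation of 0.24 over 17 mice with LE and U and 0.31 over 13 mice with U and DU, and comparisons of tissues were also run with animal as a blocking term. The members, lists and comparisons were chosen with earlier results of these data known. All 9 members are described, with the comparisons that called them, and from each list at most the 3 called genes of smallest adjusted p in a comparison are named. For each member with a group mean of at least 10 CPM the 2 genes of closest profile are named, except 1 that is not reported here.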

Additional observations from a re-analysis of the deposited data

Results flagged for a closer look

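In luminal epithelium the knockout effect differed between days, by the interaction term of edgeR's quasi-likelihood test, for Slc26a9 (4.27), Slc26a6 (−5.88) and Slc26a2 (0.991 on the log2 scale, D3.5 minus D0.5). Of 77 combinations of member and group with 4 to 10 libraries, 16 held 1 library farther from the others than Dixon's 95% limit. The rate of 1 in 20 that this limit sets holds for independent, normally distributed values. Here combinations share mice and some levels are near 0, so the 16 cannot be set against that rate. DU control mouse 1 of D0.5 was high for Slc26a1 (16.2 CPM), Slc26a6 (8.82 CPM) and Slc26a8 (1.79 CPM). Control mouse 14 of D3.5 was high for Slc26a3 in LE (1.24 CPM) and U (0.508 CPM) and for Slc26a8 in U (1.92 CPM). Among LE knockouts of D3.5, Slc26a2 was high in mouse 34 (102 CPM), Slc26a4 in mouse 36 (2.08 CPM) and Slc26a9 in mouse 32 (7.65 CPM). Among LE libraries of D0.5, Slc26a7 was high in knockout mouse 25 (0.543 CPM) and control mouse 9 (0.317 CPM), and Slc26a8 in knockout mouse 23 (1.18 CPM) and control mouse 8 (0.646 CPM). In U, Slc26a6 was high in knockout mouse 27 of D0.5 (6.83 CPM) and Slc26a8 in knockout mouse 37 of D3.5 (3.17 CPM), while Slc26a11 was low in knockout mouse 35 of D3.5 (11.8 CPM).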

How the results depend on the processing

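Over the alternatives other than leaving out single libraries, the fold changes of called members kept their direction and call in 378 of 408 refits, lost the call in 30 and reversed in 0. The number of called members moved as follows, with the number of all genes called in brackets. The TPM scales tested fewer genes, 12815 in LE, 13934 in U, 14106 in DU and 13645 in LE with U. For the knockout in U at D0.5 (1 member, 809 genes) it was 2 by DESeq2 (1286 genes) and 4 by voom (2257). In U at D3.5 (0 members, 3 genes) it was 2 by voom (1439). In DU at D0.5 (0 members, 1306 genes) it was 2 by DESeq2 (2173), 1 on log2(TPM + 1) (1164) and 1 by voom (1393). For D3.5 against D0.5 in knockout LE (5 members, 6488 genes) it was 3 on both TPM scales (7438 and 7297). In knockout U (5 members, 4139 genes) it was 2 on both (3712 and 3687), and in control DU (3 members, 5573 genes) 5 by voom (6923). For the change of the knockout effect in LE (3 members, 2575 genes) it was 5 by DESeq2 (3139). In U (0 members, 232 genes) it was 1 by DESeq2 (523), voom (1029) and both TPM scales (256 and 201). In DU (0 members, 304 genes) it was 1 by DESeq2 (903) and voom (686). For control LE against U at D3.5 (4 members, 8341 genes) it was 2 on log2(TPM + 1) (7564) and by voom (8744). For DU against U (0 members, 0 genes) it was 1 by voom (3498) and 2 with the replicate block (7082). The block moved no other count by over 1.5 times. With 1 library left out, counts ranged from 0 to 2 for the knockout in U and in DU at D0.5, from 3 to 4 for day in knockout U, from 3 to 6 for day in control DU and from 0 to 1 for the change of the effect in DU. In U at D0.5 it was 0 without knockout mouse 26 and 2 without knockout mouse 21 or control mouse 8, for day in knockout U it was 3 without mouse 25 of D0.5, and the highest counts in DU came without control mouse 1 of D0.5. The causes were not tested. On the TPM scales the median of all genes in LE at D3.5 moved to 0.38 and 0.42, that of day in knockout LE to 0.42 and 0.47, and that of DU against U to 0.14 and 0.17. In LE at D3.5 this came with 3549 genes higher and 391 lower on log2(TPM + 1) where the counts gave 1215 and 890, and Slc26a2 and Slc26a9 stayed above and Slc26a6 below that shift. Depth limits Slc26a4 at D3.5, which had 0 to 41 counts in each library of any tissue, and Slc26a3, which had 0 to 27 on either day.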

Other observations

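The tables hold 2 more rows of the family that were not among the 9. Slc26a10 reached 121 estimated counts (1.48 CPM, in a U library of a D3.5 knockout) and was at 0 in 31 of 59 libraries. Slc26a5, the motor protein gene of cochlear hair cells, reached 10 counts and was at 0 in 54 of 59 libraries.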
